A study of Danio rerio with 2 samples.

Results

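The embryonic alpha and beta globins of zebrafish were examined in the heart transcriptomes. They were taken as 10 named genes, 5 of alpha type and 5 of beta type, of the 33396 rows of the table. Of these, 6 were found as a row of their own, namely *hbae1.1*, *hbae1.2*, *hbae1.3*, *hbae3*, *hbae5* and *hbbe3*. The remaining 4, *hbbe1.1*, *hbbe1.2*, *hbbe1.3* and *hbbe2*, could not be assigned to a row, because the symbol table lists 5 beta-type rows of these data under the shared symbol HBE1, and these rows may hold embryonic or adult genes. The HBE1 rows are therefore reported by identifier and apart from the members.

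The study compared hearts of embryos at 72 hpf (hours post-fertilization) carrying the homozygous smyd4 allele L544Efs*1 with hearts of wild-type embryos, both labelled as strain Tu, and asked how the loss of *smyd4*, a SET and MYND domain gene, alters cardiac expression. According to the methods, the mutants were maternal-zygotic, with the allele in their mothers as well, and the embryos carried the cmcl2:GFP reporter, by which cardiomyocytes fluoresce, in the mutant and in the control line, a signal used to find the heart for dissection. Pooled hearts gave 1 library per group, so no difference could be set against the spread between replicates. The mutant line rests on a single CRISPR/Cas9 frameshift allele.

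Haemoglobin is built from alpha-type and beta-type chains, each holding a haem group that binds oxygen. Zebrafish switch from embryonic globins (the "e" in the names) in primitive erythrocytes to adult ones (the "a" names) in later blood. Unlike in mammals, alpha and beta genes lie interleaved in the same clusters in zebrafish. Haemoglobin genes are known as genes of erythrocytes, and a dissected heart can hold blood. In such bulk samples, fewer erythrocytes and less globin RNA per erythrocyte cannot be told apart.

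In the RefSeq gene list, 12 genes counted as globins stand in one cluster between *nprl3* and *kank2*. *ba1l*, which has the adult beta globin name hbba1.1 as a synonym, lies among them and is not in this count. There *hbbe1.1*, *hbae1.1*, *hbbe1.2*, *hbae1.2*, *hbbe1.3*, *hbae1.3* and *hbae3* follow each other after the adult genes. A smaller cluster of 4 genes runs *hbae4*, *hbbe3*, *hbbe2* and *hbae5*, with the water channel gene *aqp8a.2* next to it. The list gives *hbae1.2* and *hbae1.3* a common older name, and they are close copies by name, so reads could have been divided between them. Their sequences were not used here, so how alike they are was not measured.

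The libraries were taken to hold 18840114 reads (control) and 17960132 reads (labelled mutant). Among the totals that fit the ratios of the values, these are the smallest not below the sum of the recovered reads. The targeted gene *smyd4* (ENSDARG00000060983) stood at 2.42 FPKM (111 reads) in control and 2.42 FPKM (106 reads) in the other library. It was thus not lower in the latter as deposited, with a ratio of 1.00 (0.760 to 1.32), and was lower with TMM scaling at 0.696 (0.528 to 0.916), median-of-ratios scaling at 0.685 (0.520 to 0.901) and upper-quartile scaling at 0.612 (0.465 to 0.806). The latter is called the mutant-labelled library here, and directions are given as the labels have them. Over the 17800 genes tested, which reached 1 FPKM in control or in the other library or in both, the median log2 difference was 0.49, so values are also given relative to this shift or under other scalings of the libraries. The heart label was set beside marker rows, whose presence cannot show that heart was the main tissue. Liver and yolk markers had a total of 35524 FPKM (control) and 7506 FPKM (mutant-labelled library). Epidermis markers had a total of 17403 and 24763 FPKM in the same order. Both totals were above those of the cardiomyocyte markers in each library. There were 10 rows of cardiomyocyte markers, of which 1 row was at 0 in control and no row in the other library. Their FPKM summed to 5447 in control and 6507 in the mutant-labelled library, with the cardiac myosin light chain *myl7* at 642.0 and 2977 FPKM, the atrial peptide *nppa* at 134.9 and 776.4 FPKM, and the cardiac actin *actc1a* at 4275 and 1685 FPKM.

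*hbae3* was the highest of the globin rows in both libraries and was lower in the mutant-labelled library, whereas the beta gene *hbbe3* was far higher there. The 3 *hbae1* copies added up to nearly the same level in both as deposited, and to a lower one in the mutant-labelled library with TMM, upper-quartile or median-of-ratios scaling. At the threshold of 1 on the log2 scale, 1 of the 6 members found (*hbbe3*) was higher and 0 were lower, against 33.3% higher and 11.6% lower of all genes tested. All 6 reached 1 FPKM in at least 1 library. The median difference of the 6 was -0.27, against 0.49 over all genes. The sign of *hbae1.2* and the number of lower members depended on the scaling. With TMM scaling, which brings the libraries to a common trimmed mean ratio, the median of the 6 was -0.75, 1 gene (*hbbe3*) was higher and 1 (*hbae3*) was lower, against 21.0% higher and 19.6% lower of all genes. With median-of-ratios scaling the same 2 genes were counted, against 20.5% and 20.0% of all genes. With upper-quartile scaling *hbbe3* was higher and *hbae3* and *hbae1.1* were lower, against 17.3% and 23.1% of all genes. With the values rescaled to the summed FPKM of each library without the members, *hbbe3* alone was counted, against 38.6% and 9.03%.

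**Figure D1:**
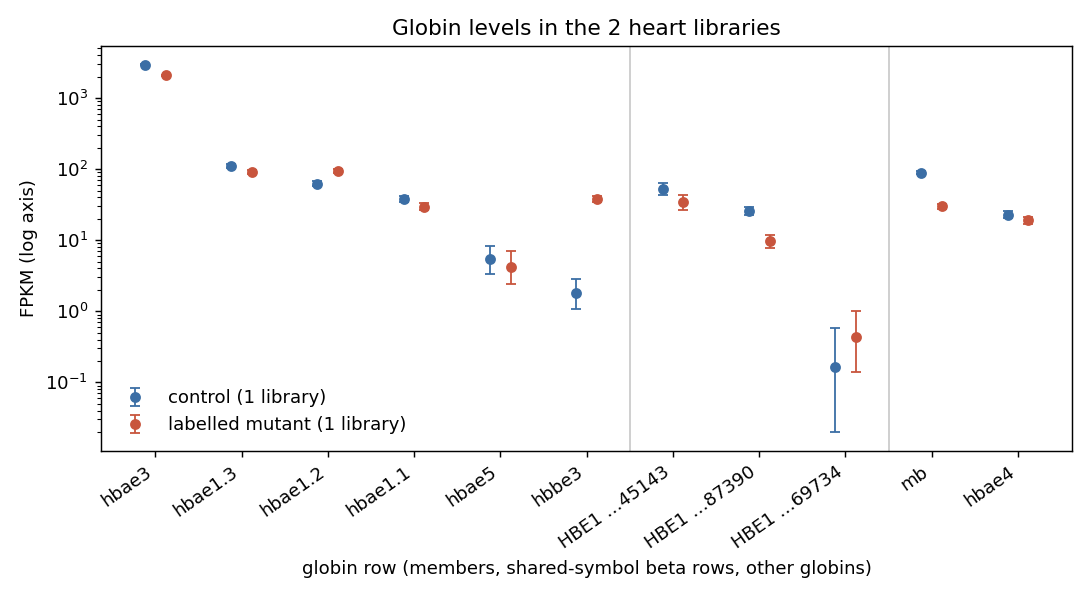
Level of each globin row in FPKM on a log axis, in the control library (blue) and the mutant-labelled library (red), with exact 95% Poisson intervals from the recovered reads that cover counting error only. Members stand left, HBE1 rows above 0 in the middle and *mb* and *hbae4* right; *hbae3* is highest in both at 2958 and 2100.4 FPKM, and *hbbe3* moves from 1.82 to 38.3 FPKM.

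Among the alpha genes, *hbae3* (ENSDARG00000079305), the last globin of the large cluster, was at 2958 FPKM (30818 reads) in the control library and at 2100.4 FPKM (20861 reads) in the mutant-labelled library. It ranked 33rd and 27th of all genes of the 2 libraries. The ratio of the mutant-labelled library to control was 0.710, and its 95% interval by the exact Clopper-Pearson method ran from 0.698 to 0.723. The log2 difference was -0.49, short of the threshold, and it was -1.02 with TMM scaling, -1.04 with median-of-ratios scaling and -1.20 with upper-quartile scaling, each past it. Relative to the median of all genes it was -0.99, and 21.8% of the tested genes had a lower difference than *hbae3*. The difference had the same sign under each of these scalings.

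The *hbae1* copies are embryonic alpha genes placed next to the *hbbe1* copies. *hbae1.3* (ENSDARG00000089124) was at 110.4 FPKM in control hearts and 92.6 FPKM in the mutant-labelled library (1154 and 923 reads), a ratio of 0.839 (0.769 to 0.916). *hbae1.1* (ENSDARG00000089475) was at 38.5 and 29.5 FPKM (411 and 300 reads), a ratio of 0.766 (0.658 to 0.891). *hbae1.2* (ENSDARG00000088330) went the other way, with 62.3 FPKM in control hearts and 94.4 FPKM in the mutant-labelled library (614 and 887 reads), a ratio of 1.52 (1.37 to 1.68). None of the 3 passed the threshold in the deposited values, with log2 differences of -0.25, -0.37 and 0.59, and *hbae1.1* passed it with upper-quartile scaling at -1.06. The sign of *hbae1.2* was not fixed, as its difference was 0.07 with TMM scaling and -0.11 with upper-quartile scaling.

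Added together, the 3 copies were at 211.2 FPKM in control hearts and 216.5 FPKM in the mutant-labelled library. Their ratio was 1.03. The recovered reads of the 3 copies summed to 2179 and 2110, and the interval of their ratio per library total, 0.956 to 1.08, included 1, so no difference of the sum was detectable beyond counting error without further scaling. With TMM scaling the ratio was 0.712 (0.664 to 0.749), with median-of-ratios scaling 0.701 (0.653 to 0.737) and with upper-quartile scaling 0.626 (0.584 to 0.659). These ratios are of the summed FPKM, while the intervals in brackets are those of the summed reads under the same scaling. Within the sum, which does not depend on the scaling of the libraries, *hbae1.2* held 29.5% in control and 43.6% in the mutant-labelled library. *hbae1.3* held 52.3% and 42.8%, and *hbae1.1* held 18.2% and 13.6%. By recovered reads the share of *hbae1.2* was 28.2% (26.3 to 30.1) in control and 42.0% (39.9 to 44.2) in the mutant-labelled library, and these exact intervals did not overlap. The counting rule is not known, and a division of reads between copies would move these parts while leaving the sum of the reads as it is. If reads that fit several copies were left out of the count, the sum could change as well, and this was not tested.

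*hbae5* (ENSDARG00000045142), an embryonic alpha gene at the end of the small cluster, was low, at 5.42 FPKM in control hearts and 4.26 FPKM in the mutant-labelled library. The smallest whole reads that fit were 20 and 15, and the true numbers can be a multiple of these. With them the ratio of 0.787 had an interval from 0.375 to 1.62, which included 1. The log2 difference was -0.29, or -0.72 with TMM scaling.

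*hbbe3* (ENSDARG00000038147) was the exception. This embryonic beta gene lies between *hbae4* and *hbbe2* in the small cluster. Its level was 1.82 FPKM in control hearts, from 18 reads, and 38.3 FPKM in the mutant-labelled library, from 361 reads. The ratio was 21.0 and its 95% interval by the exact Clopper-Pearson method ran from 13.1 to 35.9. Its log2 difference of 3.80 was exceeded by 21 of the 17800 genes tested, and it was 3.37 with TMM, 3.35 with median-of-ratios and 3.22 with upper-quartile scaling. Even so, it held only 1.59% of the FPKM of the members and HBE1 rows in the mutant-labelled library, and 0.0559% in control. The ratio stands on 18 control reads and on a single library per group.

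The other alpha genes of the small cluster were not higher. *hbae4*, an alpha gene that is no member, was at 22.9 FPKM in control hearts and 19.0 FPKM in the mutant-labelled library (328 and 259 reads), a ratio of 0.828 (0.701 to 0.978). *hbae5*, given above, was at 5.42 and 4.26 FPKM. *hbbe2*, the next globin on the other side, could not be assigned to a row. On the log2 scale *hbae4* differed by -0.26 as deposited and by -0.76 with TMM scaling, with the sign opposite to *hbbe3* in both.

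**Figure D2:**
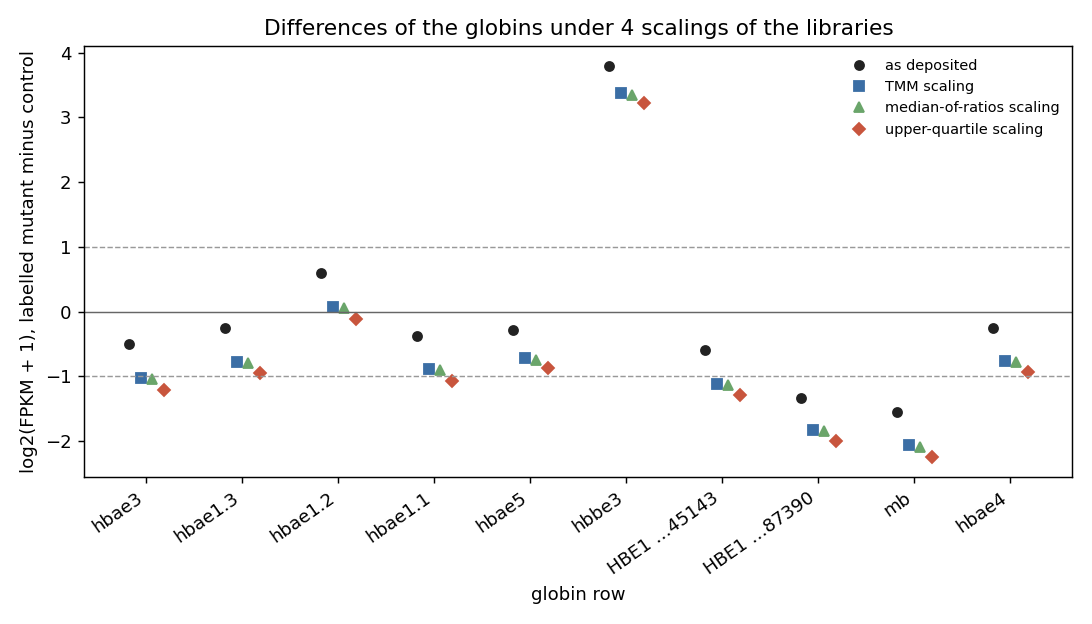
Difference in log2(FPKM + 1), mutant-labelled library minus control, for the members, 2 HBE1 rows, *mb* and *hbae4*, as deposited and under 3 scalings; dashed lines mark the threshold of 1 in either direction. *hbbe3* is above 3 in each setting, *hbae3* passes below -1 only under the 3 scalings, and *hbae1.2* changes sign with upper-quartile scaling.

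The order of the levels was read in FPKM, which is per length. In the control library it ran *hbae3*, *hbae1.3*, *hbae1.2*, *hbae1.1*, *hbae5* and *hbbe3*, and the Poisson intervals of neighbours in this order did not overlap. In the mutant-labelled library it ran *hbae3*, *hbae1.2*, *hbae1.3*, *hbbe3*, *hbae1.1* and *hbae5*. There *hbae1.2* (94.4 FPKM, 88.3 to 100.9) and *hbae1.3* (92.6 FPKM, 86.7 to 98.8) could not be ordered beyond counting error, while the intervals of the other neighbours did not overlap. The spread between libraries of the same group is not known, so these orders describe 2 libraries.

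The 6 members together were at 3176 FPKM in control hearts and 2359 FPKM in the mutant-labelled library, which was 0.390% and 0.337% of the summed FPKM of all genes. *hbae3* made up 93.2% of the summed alpha FPKM in control hearts and 90.5% in the mutant-labelled library. Without *hbae3* the other alpha members summed to 216.6 and 220.8 FPKM. The lower alpha total in the mutant-labelled library thus lay in *hbae3* in the deposited values.

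The beta-type rows that were found were low beside *hbae3* in both libraries. As 4 of the 5 beta members named could not be assigned to a row, the level of the beta globins as a whole was not measured. Of the 5 rows with the shared symbol HBE1, ENSDARG00000045143 was at 52.6 FPKM in control hearts and 34.4 FPKM in the mutant-labelled library, a ratio of 0.655 (0.482 to 0.884). The smallest whole reads that fit this row were 117 and 73, over 118 bases. Its true reads and length can be a multiple of these, so the interval holds for the smallest reads. ENSDARG00000087390 was at 25.9 and 9.66 FPKM (284 and 101 reads), a ratio of 0.373 (0.294 to 0.470). Its log2 difference of -1.34 passed the threshold and was -1.83 with TMM scaling. ENSDARG00000069734 had 2 and 5 reads (0.163 and 0.428 FPKM), and ENSDARG00000089087 and ENSDARG00000097238 were listed at 0 in both libraries. The HBE1 rows summed to 78.7 FPKM in control hearts and 44.5 FPKM in the mutant-labelled library.

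With *hbbe3* added, the beta-type rows summed to 80.5 and 82.8 FPKM, with *hbbe3* higher and the HBE1 sum lower. The alpha-type rows, *hbae4* included, summed to 3198 and 2340 FPKM. The ratio of alpha to beta was therefore 39.7 in control and 28.3 in the mutant-labelled library. Most of the beta sum in control, 52.6 FPKM, was the row ENSDARG00000045143, so the control ratio rests largely on it. Set against *hbbe3* alone, the only beta member found, the alpha members gave ratios of 1744 and 60.6. Haemoglobin holds both chains in equal number, but these ratios compare rows and not chains. How reads of near-identical beta copies were counted, and whether beta reads lie outside these rows, was not tested.

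The adult alpha genes *hbaa1* and *hbaa2* were listed at 0 in both libraries. Adult beta genes were not found by name and may be among the HBE1 rows. The globin signal that can be named was thus of the embryonic alpha genes and *hbbe3*. Of the globins made outside erythrocytes, *mb* (myoglobin, the oxygen store of muscle) was at 89.5 FPKM in control hearts and 29.9 FPKM in the mutant-labelled library (1609 and 512 reads), a ratio of 0.334 (0.302 to 0.369). Its log2 difference was -1.55, and -2.07 with TMM scaling. *ngb* (neuroglobin of nerve cells) was at 2.45 and 0.642 FPKM, with a log2 difference of -1.07, from a smallest read number of 40 and 10.

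The cytoglobins, found in many tissues, were lower on both rows here without passing the threshold in the deposited values. *cygb2* was at 1.02 and 0.704 FPKM, and the row listed as CYGB (ENSDARG00000099371) was at 4.17 and 3.48 FPKM. Globin X (*xgb*) was listed at 0 in both libraries, and androglobin (*adgb*) had 3 reads and 1 read. Over the list of adult and other globins, HBE1 rows included, 0 of 7 tested rows were higher and 3 were lower, namely ENSDARG00000087390, *mb* and *ngb*, with a median of -0.60, against 33.3% higher and 11.6% lower of all genes.

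Most marker genes of the erythrocyte were higher in the library in which *hbae3* was lower. Among 11 rows of erythrocyte markers, 8 were higher in the mutant-labelled library and 0 lower (72.7% and 0%), against 33.3% and 11.6% of all genes, with a median log2 difference of 1.27 against 0.49. With TMM scaling the median was 0.76, with 4 rows higher (36.4%) and 1 lower (9.09%), against 21.0% and 19.6% of all genes. With upper-quartile scaling it was 0.58, with 3 rows higher (27.3%) and 1 lower, against 17.3% and 23.1%. Cardiomyocyte markers moved at least as much, with 6 of 8 tested rows higher and 1 lower and a median of 1.82, or 5 and 1 with TMM scaling. The summed FPKM of the erythrocyte markers was 261.1 in control and 751.2 in the mutant-labelled library, and none of their 11 rows was at 0 in either library.

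*rhag*, an ammonia transport protein of the red cell membrane, went from 101.4 to 325.1 FPKM, a ratio of 3.21 (3.07 to 3.35). *alas2*, the erythroid enzyme for the rate-limiting step of haem synthesis, went from 58.6 to 149.0 FPKM, a ratio of 2.54 (2.41 to 2.68), although its log2 difference of 1.33 was 0.81 with TMM scaling. *cahz*, an erythrocyte carbonic anhydrase, went from 37.4 to 135.1 FPKM, a ratio of 3.61 (3.30 to 3.96). The exception in sign was *gata1a*, the transcription factor that switches on erythroid genes including globins, at 6.58 FPKM in control hearts and 3.22 FPKM in the mutant-labelled library. *klf1*, a zinc finger factor known as a globin gene activator in mammals, was at 0.568 and 3.31 FPKM.

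The level of *hbae3* per unit of each marker was then taken within each library, which needs no scaling between libraries. Per FPKM of *rhag* there were 29.2 FPKM of *hbae3* in control and 6.46 in the mutant-labelled library. Per FPKM of *alas2* there were 50.5 and 14.1, and per FPKM of *cahz* there were 79.1 and 15.6. The ratio was lower in the mutant-labelled library for 10 of the 11 rows, by a median of 3.50-fold over all 11, and higher for *gata1a* (449.6 and 652.8). Of all 17800 genes tested, 78.2% had a log2 difference above that of *hbae3*, so a lower ratio was common among all genes. The smallest of the 10 decreases was 1.58-fold, for the membrane skeleton gene *epb41b*, and the largest was 8.21-fold, for *klf1*. The decrease was not particular to erythrocyte genes, since per cardiomyocyte marker *hbae3* was lower for 7 of 8 rows, by a median of 5.04-fold over all 8 (6.53-fold for *myl7* and 8.11-fold for *nppa*), and higher for *actc1a*. *hbbe3* had a ratio between the libraries of 21.0, above that of each of the 11 rows, of which *klf1* had the highest at 5.83. In the wider erythroid list 2 rows with few control reads had higher ratios, the transcription factor genes *gfi1aa* at 29.4 (1 and 28 reads) and *nfe2* at 22.3 (4 and 85 reads).

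**Figure D3:**
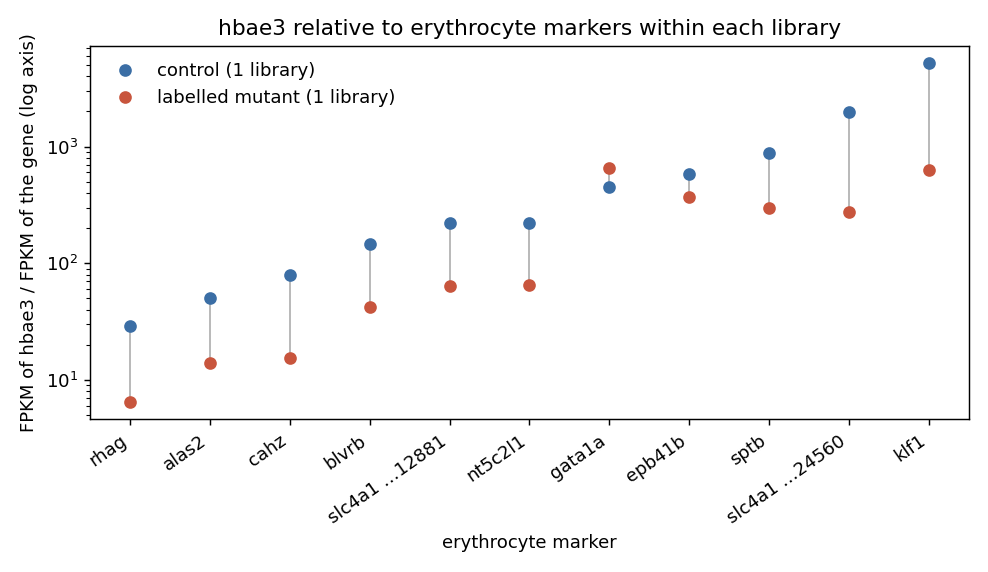
FPKM of *hbae3* divided by the FPKM of each erythrocyte marker, on a log axis, within the control library (blue) and within the mutant-labelled library (red), joined by a grey line per gene. The red point lies below the blue one for 10 of 11 rows, for example 6.46 against 29.2 for *rhag*, and above it for *gata1a*. Of all genes tested, 78.2% had a log2 difference above that of *hbae3*.

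The wider erythroid list of regulators, haem synthesis, membrane and clearance genes held 72 tested rows. In the mutant-labelled library 30 of them were higher and 7 lower, and they had a median of 0.79. These were 41.7% and 9.72% of the list, against 33.3% and 11.6% of all genes. With TMM scaling 19 were higher (26.8%) and 14 lower (19.7%) of 71, against 21.0% and 19.6%, so the shares lay near those of all genes. In the group of haem synthesis and iron, 11 of 20 rows were higher (55%) and 4 lower (20%), and TMM scaling gave 8 (40%) and 4 (20%), against the same shares of all genes. *snx3*, a sorting protein of the iron uptake route, was at 28.1 and 118.2 FPKM. *alas1*, the form of the enzyme used outside erythrocytes, was at 433.4 and 78.6 FPKM, the opposite direction to *alas2*.

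Among 20 rows of regulators, 8 were higher (40%) and 0 lower, and TMM scaling gave 5 (26.3%) and 2 (10.5%) of 19. The shares higher were near the 33.3% and 21.0% of all genes, and the shares lower were below the 11.6% and 19.6% of all genes. The 3 most abundant regulators were the rows listed as *id2* (ENSDARG00000055283), *ldb1* (ENSDARG00000010137) and *rbpms2* (ENSDARG00000079578), which are not particular to blood. They were at 86.5 and 148.4 FPKM, at 41.1 and 134.4 FPKM, and at 48.3 and 149.9 FPKM. The symbols *ldb1* and *rbpms2* each held more than 1 row, and each of these rows was counted as higher in the deposited values. Of 26 membrane and cytoplasm rows, 10 were higher (38.5%) and 3 lower (11.5%), near the 33.3% and 11.6% of all genes, but with TMM scaling 6 were higher (23.1%) and 8 lower (30.8%), against 21.0% and 19.6%. Next to *rhag* and *cahz*, the water channel *aqp1* (ENSDARG00000023713) was among the most abundant there, at 197.9 and 109.9 FPKM. Of 6 tested rows for haem and haemoglobin clearance, 1 was higher and 0 lower, and TMM scaling gave 0 and 0, against 33.3% and 11.6% of all genes as deposited and 21.0% and 19.6% with TMM scaling. They were led by the ferritin genes *fth1a* (546.4 and 728.9 FPKM) and *fthl27* (207.9 and 351.9 FPKM). Next came *ftr82* (27.7 and 79.9 FPKM), which is not a ferritin gene and whose part in clearance was not tested. As deposited, *ftr82* was the 1 row counted as higher, and it is also counted in the wider list. No other tested row of this group passed the threshold, so the count does not show a higher level of clearance genes.

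Markers of other tissues also differed between the libraries and stand beside these values. Liver and yolk markers summed to 35524 FPKM in control hearts and 7506 FPKM in the mutant-labelled library, led by *apoa2*, *apoa1b* and *fetub*. Of their 9 tested rows 0 were higher and 8 were lower (88.9%), against 33.3% and 11.6% of all genes. Epidermis markers summed to 17403 and 24763 FPKM, led by *krt4*, *krt5* and *krt91*. Of 10 epidermis rows 6 were higher (60%) and 1, *krt5*, was lower (10%), against the same shares of all genes. Skeletal muscle markers summed to 7815 and 4493 FPKM, led by *ckmb*, *ckma* and a row listed as ACTA1 (ENSDARG00000036371). Of 16 skeletal muscle rows 2 were higher (12.5%) and 4 lower (25%), against 33.3% and 11.6% of all genes. Several of these rows, lower ones among them, came from the 1 listed name *tnni2a.4*, which took every row listed as TNNI2. This ACTA1 row was at 481.0 and 818.8 FPKM, and the other row listed as ACTA1 (ENSDARG00000055618) went the opposite way, at 757.4 and 476.6 FPKM. Lens markers, of which 6 rows were at 0 in control and no row in the other library, summed to 1.05 and 77.2 FPKM, led by *cryba1b*, *crybb1* and *crygm2d1*. Among the other cells of blood and vessels, the macrophage and neutrophil rows, led by *coro1a*, *lyz* and *mfap4*, summed to 193.4 and 132.1 FPKM. Of 10 tested rows 1 was higher (10%) and 3 were lower (30%), against 33.3% and 11.6% of all genes. The higher one, listed as *mpeg1* (ENSDARG00000043093), was at 1.41 and 11.1 FPKM, a ratio of 7.90 (6.15 to 10.3). Another *mpeg1* row (ENSDARG00000055290) was at 14.0 and 20.8 FPKM. The endothelial and endocardial rows, led by *fli1*, *egfl7* and *cldn5*, summed to 123.3 and 206.3 FPKM, with *fli1* at 51.8 and 95.7 FPKM. Among their 9 tested rows 2 were higher (22.2%) and 0 lower, against 33.3% and 11.6% of all genes. Their median log2 difference was 0.33, against 0.49 over all genes. The thrombocyte rows, led by *fgb*, *thbs1* and *f13a1b*, summed to 261.2 and 185.8 FPKM. Most of this sum was *fgb* (also made by liver and listed among the liver and yolk markers), at 219.1 and 123.7 FPKM. *thbs1* (ENSDARG00000010785) was at 11.5 and 34.1 FPKM and *f13a1b* at 11.4 and 14.7 FPKM. Of 8 tested thrombocyte rows 1 was higher and 1 lower (12.5% each), against 33.3% and 11.6% of all genes. These counts are of the deposited values. With TMM scaling 21.0% of all genes were higher and 19.6% lower. Epidermis rows then gave 3 higher (30%) and 1 lower (10%), and skeletal muscle rows 1 (6.25%) and 7 (43.8%). Macrophage and neutrophil rows gave 1 (10%) and 5 (50%), and thrombocyte rows 0 and 2 (25%). Liver and yolk rows gave 0 and 9 (100%), and endothelial and endocardial rows 1 (11.1%) and 0. The part of these tissues in the globin values was not tested.

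**Figure D4:**
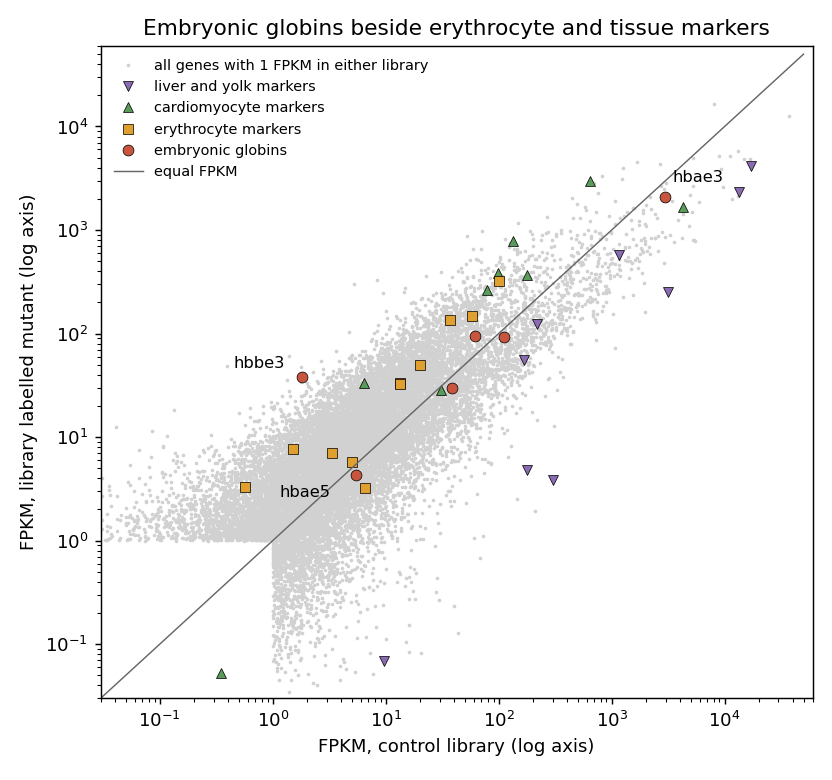
FPKM in the mutant-labelled library against FPKM in the control library, both on log axes, for the genes tested that were above 0 in both (grey), with liver and yolk markers (purple), cardiomyocyte markers (green), erythrocyte markers (orange) and the 6 embryonic globins (red); the line marks equal FPKM. *hbae3* lies below the line at 2958 and 2100.4 FPKM, most erythrocyte markers lie above it, and *hbbe3* stands far above it.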

How the data were processed

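Heart RNA of zebrafish embryos at 72 hpf was sequenced as 1 control library and 1 library labelled *smyd4* mutant. The deposited values are FPKM, that is, reads per kilobase of gene and scaled to the reads of the library, computed by the authors and recognised from the values themselves. The processing notes of the submitters name Bowtie2 2.0.6 and TopHat2 2.0.9, and the methods name the unmasked zebrafish reference genome. The counting rule, the build and the annotation are not given in the sources used here, so no coordinates are printed. The table of identifiers and symbols matched 26433 of 33396 rows. Differences are log2(FPKM + 1) in the mutant-labelled library minus control, for genes that reached 1 FPKM in control, in the other library or in both, and a gene was counted as higher or lower past an absolute difference of 1. With 1 library per group there was no test of the genotypes, and no count model was used.

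Because ratios of FPKM values are ratios of whole reads times 1 constant, whole reads and gene lengths were recovered at totals of 18840114 reads for control and 17960132 reads for the mutant-labelled library. These are the smallest totals not below the sum of the reads. Each read number is the smallest that gives a whole gene length, and the true number, with the length, can be a multiple of it. Poisson intervals of a level and Clopper-Pearson intervals of a ratio or a share are exact 95% intervals and cover counting error only. The recovery and the calls were tested on simulated data, with the multiple of the totals set from the known totals. The choice of the multiple was thus not tested. Totals of 37680228 and 35920264 reads also lay above the sums of their reads.

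The members and the lists were chosen with earlier results of these data known. All members found are named, as are the other globins with at least 1 FPKM in either library, and the 3 genes of each list with the highest mean FPKM. Other genes of the erythrocyte marker list, *gfi1aa*, *nfe2*, the *mpeg1* rows, the other ACTA1 row, the TNNI2 rows and the globin rows under 1 FPKM were named after their values had been seen. Capital symbols of the table are printed in lower case, except HBE1. Names matched to a capital symbol carry no paralog letter. Such a name took every row of its symbol, so 1 listed name can count as several rows. The alternatives were TMM (30% and 5% trims), median-of-ratios and upper-quartile scaling, rescaling to the summed FPKM without the members, a pseudocount of 0.1, 2 other filters and a threshold of 2. RefSeq names and gene order come from assembly GRCz12tu. Python 3.11.15, numpy 2.4.6, pandas 2.3.3, scipy 1.17.1 and matplotlib 3.10.9 were used.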

Additional observations from a re-analysis of the deposited data

How the results depend on the processing

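No replicate could be left out and no paired analysis was possible because each group had 1 library. Of the 6 members, 1 was lower with TMM scaling, 1 with median-of-ratios scaling and 2 with upper-quartile scaling, against 0 as deposited, and *hbbe3* was the 1 higher gene in each of the 8 alternatives run. The median of the members was -0.75, -0.77 and -0.91 under these scalings and -0.070 with values rescaled to the summed FPKM without the members. Rescaled with the members kept, an alternative chosen after seeing the data, it was -0.069. The members held only 0.390% and 0.337% of the summed FPKM of the 2 libraries, so leaving them out could hardly change this value. The erythroid list gave 19, 19 and 15 higher and 14, 15 and 17 lower rows under these scalings in the same order, against 21.0%, 20.5% and 17.3% higher and 19.6%, 20.0% and 23.1% lower of all genes. With a threshold of 2 it gave 3 higher and 1 lower, and the adult and other globins 0 lower. The share of all genes past a threshold of 2 was not taken, so these counts are not read as a result about the lists. The share of the members in control was 0.401% without mitochondrially encoded genes, 0.392% over Ensembl identifiers and 0.175% of the reads. In the mutant-labelled library it was 0.349%, 0.339% and 0.130%. The ratio of alpha to beta over every alpha-type and beta-type row was 39.7 and 28.3. Of 65 values of 13 single globin rows under 5 alternatives, 34 moved by less than counting error, 31 moved more, and 0 of the called ones changed sign. The causes of these moves were not tested. The ratio without the most abundant alpha and beta member could not be formed, as 1 beta member was found. Promoter motifs, protein identity and shares of merged near-identical proteins were not run, as no sequences were at hand. Depth limits *hbae5* and the 18 control reads of *hbbe3*.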
